A study of Mus musculus with 4 samples.

Results

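The genes of MHC class II presentation, with the loading factors that fit peptides into class II molecules, were followed across 4 arrays of macrophages sorted from the ear skin of adult mice. The set was fixed by gene symbol and holds 10 genes. Of these, 9 had a transcript cluster (the array's unit for 1 transcript region) annotated to that symbol alone, out of 22180 genes measured that way, and each of the 9 had 1 such cluster. Cd74, the invariant chain, shared its cluster's annotation with a microRNA gene and was not analysed here. H2-Oa also had 1 cluster annotated to several symbols, which was not used. Of the 9 genes, 8 passed the filter on dim signals, as did 13133 genes in all, and H2-Oa did not.

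The macrophages were divided into CX3CR1low and CX3CR1bright cells, named for the fractalkine receptor CX3CR1. All donors were untreated C57Bl/6 animals of genotype Cx3cr1+/gfp, so both subsets carried GFP in place of 1 Cx3cr1 allele. Each array held RNA from cells sorted from a pool of 3 to 6 mice, and the 2 arrays of a subset came from 2 independent litters. The array values are RMA levels on a log2 scale, in which a difference of 1 is a doubling of the signal.

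Class II molecules are pairs of an alpha and a beta chain that carry peptides from endocytosed antigen to CD4+ T cells. In the endosome the invariant chain is cut away, H2-DM exchanges its last fragment for antigen peptides, and H2-DO holds H2-DM in check, chiefly in B cells. Transcription of nearly all of these genes depends on CIITA, a co-activator that docks on factors bound to the X and Y boxes of their promoters, and macrophages raise it in response to interferon gamma.

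The sort gate was visible in the data, since Cx3cr1 itself differed by 4.82 ± 0.18 (SE) between CX3CR1bright and CX3CR1low (limma, adjusted p = 0.00966). All 10 macrophage markers examined, among them Csf1r, Adgre1 and Mertk, lay above the median of every array. The array medians were 3.65 to 3.68 and the highest level on an array was 12.6 to 12.8. A level near the median can be background, and a level near the maximum has little room above it. The level of one gene cannot be set against that of another on this scale, because each cluster has its own probes.

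Every one of the 9 genes had a higher mean in CX3CR1bright than in CX3CR1low macrophages, against 42.5% of all tested genes. None of the 8 that were tested passed the threshold of an adjusted p under 0.05 (limma). Over all tested genes only 0.137% passed it. H2-DMb2, a beta chain of the peptide exchanger, stood apart most clearly, at 3.15-fold. H2-Ob, the beta chain of its inhibitor, differed by 1.34 on the log2 scale, but its CX3CR1low level can be background and the difference ran from 0.77 to 1.91 with 1 array left out. The genes of the classical chains, H2-Aa, H2-Ab1 and H2-Eb1, differed by 1.16-fold to 1.34-fold. The transcriptional activator Ciita differed by 1.51-fold, with levels that overlapped between the subsets.

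**Figure D1:**
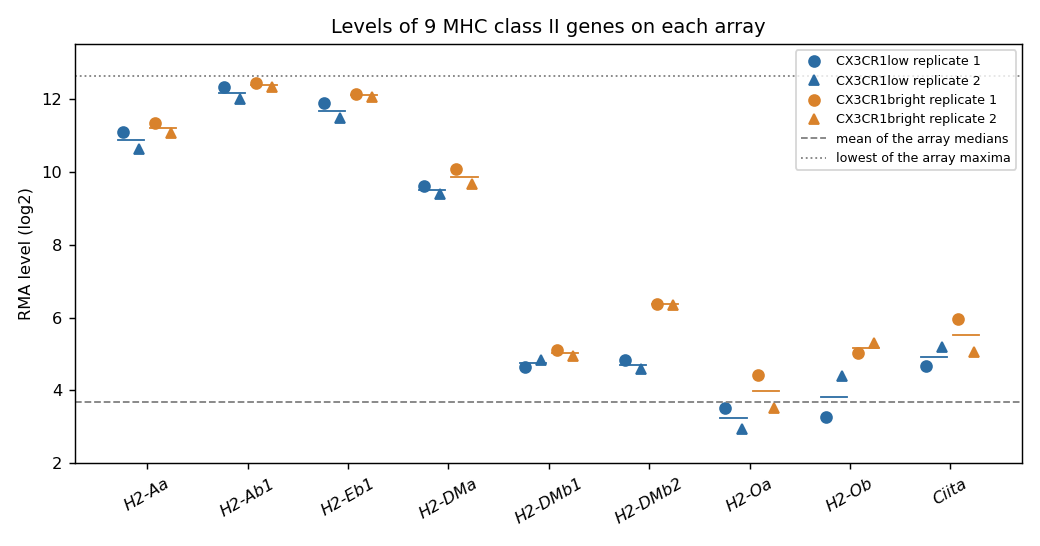
RMA level (log2) of the 9 genes on each array, with CX3CR1low in blue, CX3CR1bright in orange, circles for replicate 1, triangles for replicate 2 and a short line at each subset's mean. The dashed line is the mean of the array medians and the dotted line the lowest of the array maxima; H2-Ab1 lies close to the dotted line and H2-Oa around the dashed one.

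The classical chains were bright on every array. H2-Aa, the alpha chain of the I-A molecule, stood at 11.09 and 10.62 on CX3CR1low replicates 1 and 2 and at 11.34 and 11.05 on CX3CR1bright replicates 1 and 2. Its subsets overlapped, since CX3CR1low replicate 1 lay above CX3CR1bright replicate 2 by a narrow margin. H2-Ab1, the I-A beta chain, stood at 12.32 and 11.98 in CX3CR1low and at 12.43 and 12.32 in CX3CR1bright, and it overlapped too. H2-Eb1, the beta chain of the I-E molecule, stood at 11.87 and 11.47 in CX3CR1low and at 12.13 and 12.04 in CX3CR1bright, with no overlap. In all 3 genes CX3CR1low replicate 2 was the lowest array and CX3CR1bright replicate 1 the highest.

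The differences of the classical chains were 0.34 ± 0.25 (SE, n = 2 per subset) for H2-Aa, 0.22 ± 0.21 for H2-Ab1 and 0.42 ± 0.22 for H2-Eb1, on the log2 scale (limma, adjusted p = 0.522, 0.631 and 0.375). The 95% intervals ran from -0.29 to 0.97, from -0.31 to 0.75 and from -0.14 to 0.97. These data therefore leave room for a somewhat lower level in CX3CR1bright cells as well as for a level up to 1.95-fold, 1.68-fold and 1.96-fold higher. Without CX3CR1low replicate 2 the 3 differences were 0.10, 0.049 and 0.22, and without CX3CR1low replicate 1 they were 0.58, 0.39 and 0.62. H2-Ea, the partner chain of H2-Eb1, was added after its values were seen; C57BL/6 mice are known to carry a null allele of it. Its levels were 2.71, 2.42, 2.68 and 2.27, below the median of all 4 arrays. The H2-Eb1 values are RNA levels and do not show an I-E molecule at the cell surface.

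H2-Ab1 lay 0.21 to 0.78 below the highest level on its array, and it ranked as 8th and 3rd of 34390 clusters on CX3CR1bright replicates 1 and 2. For H2-Eb1 the distance was 0.50 to 1.29, and for H2-Aa 1.29 to 2.14. Scanner intensities were not used here, so whether probes of these genes were saturated was not tested. Differences were smaller at this end of the scale. Among the 109 tested genes with a mean level over 11, which include the 3 classical chains, 1 differed by more than 1 on the log2 scale, or 0.917%, and the median absolute difference was 0.18. Between levels of 5 and 7 it was 353 of 4430 genes, or 7.97%, with a median of 0.31.

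**Figure D2:**
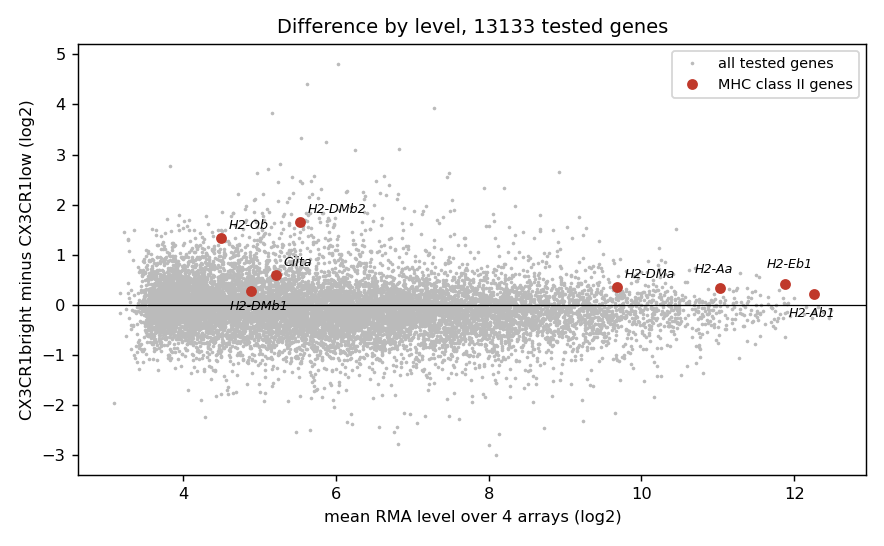
Difference between the subsets (CX3CR1bright minus CX3CR1low, log2) against the mean RMA level over the 4 arrays for 13133 tested genes in grey, with the 8 tested class II genes in red. The grey cloud narrows above a level of 11, where H2-Aa, H2-Eb1 and H2-Ab1 lie, and H2-DMb2 and H2-Ob lie near its upper edge at low levels.

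The promoters of H2-Aa and H2-Eb1 are shown for the boxes through which CIITA acts. They are RefSeq sequences of build GRCm38.p6, 80 bases around the Y box, at chr17:34287847-34287926 on the minus strand and chr17:34305753-34305832 on the plus strand. Capitals mark CTGATTGG (the Y box), TAGCAAC (X box), ATGATGC (a repeat that follows the X box) and TGACG (X2 box, read on both strands, where it meets its own reverse complement in H2-Aa).
H2-Aa: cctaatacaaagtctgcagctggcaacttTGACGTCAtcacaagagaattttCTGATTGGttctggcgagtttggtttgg
H2-Eb1: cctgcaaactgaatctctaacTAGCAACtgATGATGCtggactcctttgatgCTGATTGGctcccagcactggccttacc
Both hold the Y box in the same orientation, ending 44 and 55 bases before the gene's start. H2-Eb1 has the X box and the repeat, and H2-Aa has the X2 box in the place of the repeat. Before it H2-Aa reads tggcaac, with tg where TAGCAAC has TA, which a search for the exact letters does not mark. Promoter sequences of H2-Ab1 and Ciita were not used here.

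The H2-DM genes encode the exchanger that loads peptide. H2-DMa, its alpha chain, stood at 9.62 and 9.39 on CX3CR1low replicates 1 and 2 and at 10.06 and 9.66 on CX3CR1bright replicates 1 and 2, without overlap but with a gap of only 0.038. H2-DMb1, the first of the beta chain genes, stood at 4.66 and 4.84 in CX3CR1low and at 5.11 and 4.95 in CX3CR1bright, also without overlap and with a gap of 0.11. H2-DMb2, the other beta chain gene, stood at 4.82 and 4.58 in CX3CR1low and at 6.36 and 6.35 in CX3CR1bright. Its gap of 1.53 between the subsets was far wider than the spread within either one.

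The difference of H2-DMb2 was 1.66 ± 0.19 (SE, n = 2 per subset) on the log2 scale, with a 95% interval of 1.17 to 2.15, or 2.25-fold to 4.43-fold. Its unadjusted p in limma was 0.000271, smaller for 51 other genes of the 13133, and its adjusted p was 0.0632, so it did not pass. It passed under an intensity trend in the variance (limma, adjusted p = 0.0306), where 2.35% of all tested genes passed. It also passed with a stricter filter on the mean level (limma, adjusted p = 0.0159), where 5.93% did. It entered that stricter test only through its CX3CR1bright level, since its CX3CR1low mean was 4.70 and the 75th percentiles of the arrays were 5.44 to 5.52, so that value gives no support. With 1 array left out the difference stayed between 1.54 and 1.78, with an adjusted p of 0.0597 to 0.429 (limma). H2-DMa differed by 0.36 ± 0.23 (limma, adjusted p = 0.466) and H2-DMb1 by 0.28 ± 0.19 (limma, adjusted p = 0.492), with 95% intervals of -0.22 to 0.94 and -0.20 to 0.77.

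**Figure D3:**
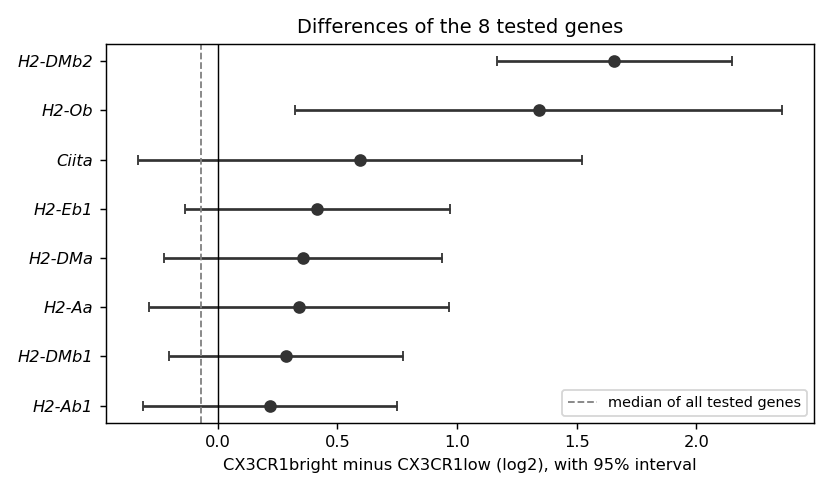
Difference of each of the 8 tested genes between CX3CR1bright and CX3CR1low (log2, points) with its 95% interval from limma (bars); the dashed line is the median of all tested genes, -0.070. The intervals of H2-DMb2 and H2-Ob lie above 0, and the other 6 include it.

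H2-DMb2 and H2-DMb1 are neighbouring paralogs, and their promoters are shown to let their likeness be seen. They are RefSeq windows of GRCm38.p6 on the plus strand, from 250 bases before the start of the gene, at chr17:34144999-34145298 and chr17:34152941-34153240. Capitals mark ATGATGC and ATTGG, the core of the Y box.
H2-DMb2: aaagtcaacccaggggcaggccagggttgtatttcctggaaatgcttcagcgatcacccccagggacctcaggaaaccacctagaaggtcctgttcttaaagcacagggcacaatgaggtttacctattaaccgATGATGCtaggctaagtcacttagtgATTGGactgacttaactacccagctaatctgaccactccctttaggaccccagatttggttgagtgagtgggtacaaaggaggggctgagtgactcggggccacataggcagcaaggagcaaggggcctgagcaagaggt
H2-DMb1: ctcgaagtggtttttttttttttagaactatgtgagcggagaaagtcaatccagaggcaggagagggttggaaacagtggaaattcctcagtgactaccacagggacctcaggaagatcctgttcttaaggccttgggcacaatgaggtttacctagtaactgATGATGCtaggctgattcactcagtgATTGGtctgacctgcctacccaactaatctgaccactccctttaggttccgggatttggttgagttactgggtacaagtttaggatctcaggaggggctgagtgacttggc
Over 247 aligned bases, 208 were identical, or 84.2%. Both windows hold the repeat and the Y box core 19 bases apart, and neither holds AGCAAC, the core of the X box. This likeness is of promoters and not of transcripts. As the genes are paralogs, probes of one may also bind transcripts of the other, which was not tested.

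The ratio of H2-DMb2 to H2-DMb1 within an array can be read only for its change between the subsets, which was 1.37 on the log2 scale, 2.59-fold, without overlap. An exact two-sided permutation test gave p = 0.333, the smallest that 2 arrays against 2 allow, and 0.889 after adjustment over the 4 chain pairs compared. For the other pairs the change was 0.12 for H2-Aa over H2-Ab1 and 0.074 for H2-DMa over H2-DMb1, with exact permutation p-values of 0.667 and 1. No change is given for the pair of H2-Ob and H2-Oa, because both lay below the array median on 1 or more arrays.

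H2-DO, the inhibitor of H2-DM, was dim. H2-Oa, its alpha chain, stood at 3.53 and 2.95 on CX3CR1low replicates 1 and 2 and at 4.44 and 3.51 on CX3CR1bright replicates 1 and 2. It lay above the array median on CX3CR1bright replicate 1 alone, so its level can be background on the other arrays, and it was not tested. H2-Ob, the beta chain, stood at 3.26 and 4.40 in CX3CR1low and at 5.03 and 5.31 in CX3CR1bright, without overlap. CX3CR1low replicate 1 lay below the array median and the 2 CX3CR1low arrays were far apart. The difference of H2-Ob was 1.34 ± 0.40 (SE, n = 2 per subset), with a 95% interval of 0.32 to 2.36, an unadjusted p of 0.0190 and an adjusted p of 0.182 (limma). It was 0.77 without CX3CR1low replicate 1 and 1.91 without CX3CR1low replicate 2. Since the CX3CR1low level can be background, the fold is limited by it. With only CX3CR1low replicate 2 above its median in that subset, H2-Ob passed the filter through its CX3CR1bright levels. Its p-values therefore give no support.

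B cells are the best known source of H2-DO. Of 8 B cell markers, 7 were measured, and Cd79a, Ms4a1 (CD20) and Cr2 lay below the median of all 4 arrays. The mean over the 7 was 4.36 and 4.46 in CX3CR1low and 4.57 and 3.90 in CX3CR1bright, and of these genes 1, the immunoglobulin gene Ighm at 9.95, 9.74, 9.78 and 9.11, lay above the median throughout. The part of B cells in the H2-DO values was not tested.

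The promoters of the H2-DO genes are shown beside those of the classical chains. They are RefSeq stretches of 80 bases from GRCm38.p6 on the plus strand, at chr17:34092281-34092360 and chr17:34238793-34238872, with the boxes in capitals as before and AGCAAC, the X box core, in H2-Oa.
H2-Oa: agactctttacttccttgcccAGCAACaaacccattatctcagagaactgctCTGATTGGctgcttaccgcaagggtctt
H2-Ob: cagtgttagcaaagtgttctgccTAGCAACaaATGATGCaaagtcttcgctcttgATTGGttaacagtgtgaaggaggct
H2-Oa holds the full Y box, and H2-Ob its core with the X box and the repeat. Over the 7 genes of the set with a RefSeq window, ATTGG was found in 7, on either strand, against 37.4% of 32851 windows of this length. The Y box CTGATTGG, which contains ATTGG, was found in 3 of the 7 against 4.10% of windows, and TAGCAAC, which contains AGCAAC, in 2 against 3.66%. AGCAAC was found in 3 against 14.8%, TGACG in 1 against 20.8% and ATGATGC in 4 against 2.46%. In H2-DMa the match lay 198 bases before an alternative start and its other window held none. The repeat followed by ATTGG after 15 to 20 bases was found in H2-DMb1, H2-DMb2, H2-Eb1 and H2-Ob and in 9 windows in all, or 0.0274%. The motif TAGCAAC, the repeat and that spacing were chosen after the promoters of these genes had been read. A match describes letters, not a bound site.

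Ciita, the gene of the co-activator CIITA, stood at 4.66 and 5.18 on CX3CR1low replicates 1 and 2. On CX3CR1bright replicates 1 and 2 it stood at 5.97 and 5.07. CX3CR1bright replicate 1 was the highest array, and CX3CR1bright replicate 2 lay below CX3CR1low replicate 2. The difference was 0.59 ± 0.37 (SE, n = 2 per subset), with a 95% interval of -0.33 to 1.52 and an adjusted p of 0.449 (limma). It was 1.05 without CX3CR1bright replicate 2 and 0.14 without CX3CR1bright replicate 1.

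Across the set, 0 of the 8 tested genes passed the adjusted threshold in limma, where 0.0609% of all tested genes passed as higher in CX3CR1bright and 0.0761% as lower. At an unadjusted p under 0.05 (limma) 2 of the 8 were higher, against 7.03% of all genes, and 0 were lower, against 11.8%. The 2 were H2-DMb2 and H2-Ob. H2-Ob passed the filter on dim signals only through its CX3CR1bright levels, so it adds no support to that count. All 8 had a positive difference, against 42.5% of all genes, and their median was 0.39, against -0.070 over all genes. Without overlap were 5 of the 9 measured genes, all higher in CX3CR1bright, against 18.9% of tested genes on that side and 31.5% on the other. That count was 8 without CX3CR1low replicate 1, where the share of all tested genes was 29.3%, and 9 without CX3CR1bright replicate 2, where it was 31.0%; overlap can only shrink when an array is removed. The median difference was 0.20 without CX3CR1bright replicate 1. The genes largely share a regulator and a chromosome region and were chosen with earlier results known, so these counts are a description and not a test.

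**Figure D4:**
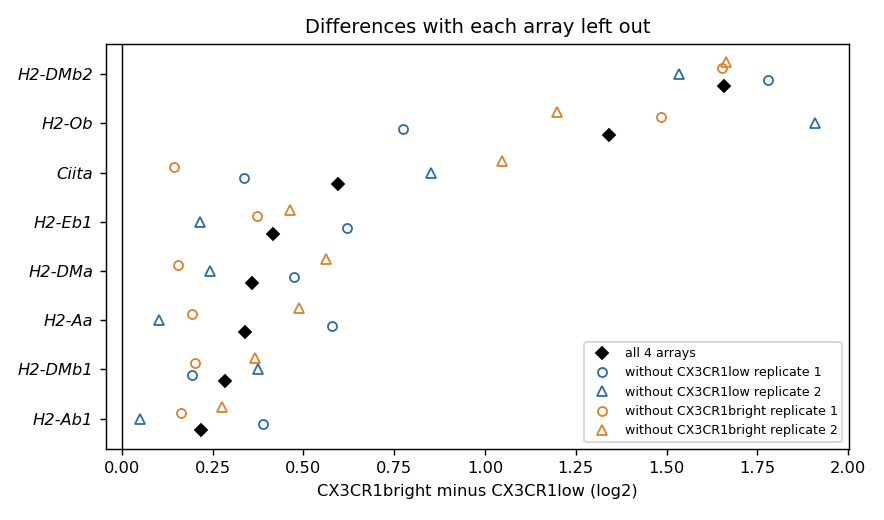
Difference (CX3CR1bright minus CX3CR1low, log2) of the 8 tested genes with all 4 arrays (black) and with each array left out (open marks, coloured by the array that was removed). All values lie above 0; those of H2-DMb2 stay within 1.54 to 1.78, and those of H2-Ob spread from 0.77 to 1.91.

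CX3CR1bright replicate 1 was the highest array for 8 of the 9 genes, against 19.8% of all tested genes, and H2-Ob was the exception. CX3CR1low replicate 2 was the lowest for 6 of the 9, against 20.1%. The median of the 9 genes lay 0.56 above the CX3CR1low mean on CX3CR1bright replicate 1 and 0.20 above it on CX3CR1bright replicate 2, and the CX3CR1low arrays lay 0.12 to either side. Between arrays of the same number, CX3CR1bright was higher in 9 of 9 genes for replicate 1 and in 8 of 9 for replicate 2, Ciita being the exception, against 43.0% and 43.1% of all tested genes. On replicate 2 the levels of H2-Oa, 2.95 and 3.51, lay below the array medians.

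Some other cell types of skin carry class II, and markers of several cell types, with or without class II, differed between the same arrays. Conventional dendritic cell markers (9 of 10 measured, 7 of them above the median throughout) lay 1.01 and 1.16 above the CX3CR1low mean on CX3CR1bright replicates 1 and 2. Flt3, the growth factor receptor of that lineage, stood at 4.07 and 4.58 in CX3CR1low and at 6.41 and 6.50 in CX3CR1bright. Of the 9, 7 were higher in CX3CR1bright without overlap, against 18.9% of all tested genes. Xcr1 and the receptor gene Kit overlapped, with differences of -0.098 and -0.095. Also higher in CX3CR1bright without overlap were 5 of 5 Langerhans cell, 5 of 7 keratinocyte, 6 of 6 fibroblast and 1 of 3 T cell markers. Of 10 macrophage markers 2 were higher without overlap and 7 lower, where 31.5% of all tested genes were lower without overlap. Langerhans cell markers (5 of 6 measured, all above the median throughout) lay 1.13 and 2.29 above the CX3CR1low mean. The langerin gene Cd207 stood at 5.20, 4.82, 6.97 and 7.54. Keratinocyte markers (7 of 8 measured) lay 0.77 and 2.43 above the CX3CR1low mean, fibroblast markers (6 of 6) 1.08 and 1.18. T cell markers (3 of 6) lay 1.28 and 0.12 above it. Plasmacytoid dendritic cell markers differed by 0.11 and -0.033, with Ccr9 below the median of all arrays, and macrophage markers by -0.26 and -0.22. Class II was highest on CX3CR1bright replicate 1, as were the means of T cell, B cell and plasmacytoid dendritic cell markers. Those of Langerhans cell, keratinocyte, conventional dendritic cell and fibroblast markers were highest on CX3CR1bright replicate 2. Within the Langerhans cell list Il1r2 was higher on CX3CR1bright replicate 1 (8.18 against 7.98), and Cd207, Epcam, Cdh1 and Kcnn4 on replicate 2. Between CX3CR1bright replicates 1 and 2, Epcam (4.53 and 6.73) and Cdh1 (6.47 and 9.24) rose the most. The high list mean on replicate 2 rests largely on them, and which cells they came from was not tested. The part of these cells in the class II values was not tested, and in sorted bulk samples more cells of a type and more RNA per cell cannot be told apart.

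**Figure D5:**
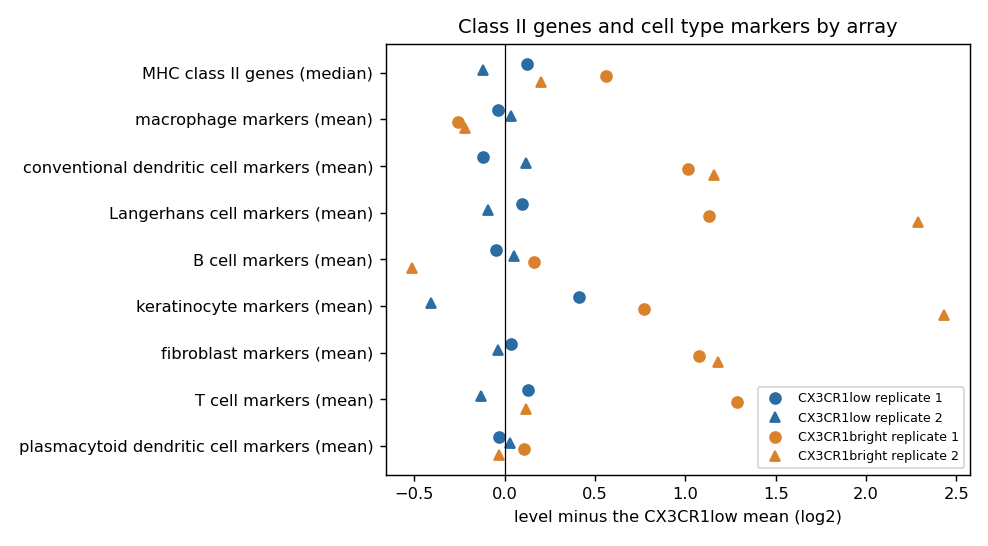
Level minus the CX3CR1low mean (log2) on each array, as the median of the 9 class II genes and as the mean of the measured markers of each cell type, with CX3CR1low in blue, CX3CR1bright in orange, circles for replicate 1 and triangles for replicate 2. The class II median (0.56) is highest on CX3CR1bright replicate 1, as are T cell (1.28), B cell (0.16) and plasmacytoid dendritic cell (0.11) markers. Highest on CX3CR1bright replicate 2 are Langerhans cell (2.29), keratinocyte (2.43), conventional dendritic cell (1.16) and fibroblast (1.18) markers.

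The other genes of the pathway did not share one direction. Of 67 listed genes 62 were tested, 0 passed the adjusted threshold on either side in limma, 10 were higher and 8 lower at an unadjusted p under 0.05 (limma), against 7.03% and 11.8% of all tested genes. Their median difference of -0.060 was close to the -0.070 of all genes. The X and Y box factors of the RFX and NF-Y complexes were nearly level, with 0 of 7 at an unadjusted p under 0.05 in limma. Creb1 differed by 0.13 ± 0.19 (SE), and the NF-Y subunit genes Nfyb and Nfyc differed by -0.12 ± 0.20 and -0.24 ± 0.18.

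Of the interferon gamma route to Ciita, 1 of 7 tested genes was higher at an unadjusted p under 0.05 and 0 lower (limma). Over all tested genes the shares were 7.03% and 11.8%. The higher gene was Jak2, the kinase bound to the interferon gamma receptor. Jak2 stood at 8.77 and 8.84 in CX3CR1low and at 9.96 and 10.19 in CX3CR1bright. Its difference was 1.27 ± 0.19 (SE; limma, adjusted p = 0.0845). The receptor gene Ifngr1 differed by 0.43 ± 0.21 and the interferon regulatory factor gene Irf8 by -0.42 ± 0.24. Among repressors and lineage regulators, 2 of 7 were higher and 0 lower at an unadjusted p under 0.05 in limma, against the same shares. The 2 were Prdm1, a repressor of Ciita, at 0.58 ± 0.18, and Zbtb46, a dendritic cell factor, at 0.74 ± 0.20. Irf4 differed by -0.55 ± 0.24.

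The proteases and their inhibitors in the class II compartment had 1 of 11 genes higher and 2 lower at an unadjusted p under 0.05 (limma), near the 7.03% and 11.8% of all tested genes, and a median of -0.26. Ctsl, the gene of cathepsin L, which cuts the invariant chain in thymic epithelium, stood at 9.57 and 9.54 in CX3CR1low and at 8.42 and 8.31 in CX3CR1bright. Its difference was -1.19 ± 0.18 (limma, adjusted p = 0.0845). Ctsd, of the aspartic protease cathepsin D, differed by -0.57 ± 0.19 and Ctsh, of cathepsin H, by 0.62 ± 0.20. Of the genes for vesicle traffic and lysosomes, 1 of 9 was higher and 3 lower at an unadjusted p under 0.05 (limma). Plekhm1, an adaptor for fusion with lysosomes, differed by -1.60 ± 0.21 (limma, adjusted p = 0.0761), the transcription factor gene Tfec by -1.56 ± 0.37 and Hps1 by -0.64 ± 0.22.

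In surface turnover, 1 of 8 genes was higher and 2 lower at an unadjusted p under 0.05 (limma). Over all tested genes the shares were 7.03% and 11.8%. The tetraspanin gene Cd9 stood at 7.44 and 7.52 in CX3CR1low and at 8.99 and 9.08 in CX3CR1bright, a difference of 1.55 ± 0.18 (limma, adjusted p = 0.0632). Its relative Cd37 differed by -0.97 ± 0.19. Marchf8, a ubiquitin ligase of the family that removes class II from the surface, differed by -1.31 ± 0.31. Co-stimulatory and co-inhibitory molecules, which act beside class II in contact with T cells, were the list with the most positive members. They were Cd80, Cd86, Cd40, Icosl, Cd274 and Pdcd1lg2. Of 6, 4 were higher at an unadjusted p under 0.05 (limma) against 7.03% of all tested genes, and 5 had no overlap on that side, against 18.9%, with a median of 0.78. Icosl, the ligand of ICOS, differed by 1.63 ± 0.25 (limma, adjusted p = 0.0892) and Cd80 by 0.84 ± 0.20. Pdcd1lg2, the gene of the co-inhibitory ligand PD-L2, differed by 1.30 ± 0.40. Cd274, of the co-inhibitory ligand PD-L1, overlapped, with a difference of -0.063 ± 0.36.

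H2-DMb2 had the widest difference of the set, and the tested genes with the most similar profile over the 4 arrays were Pilra, Il7r, Samsn1, Galnt12 and Gpr171. Their root mean square distance from it, after centring each gene on its own mean, was 0.041 to 0.078 on the log2 scale. Pilra, an immunoglobulin-like receptor gene, differed by 1.62 ± 0.21 (SE), and Il7r, the interleukin-7 receptor chain, by 1.56 ± 0.18. Samsn1 differed by 1.65 ± 0.20, the glycosyltransferase gene Galnt12 by 1.55 ± 0.20 and the orphan receptor gene Gpr171 by 1.73 ± 0.18, and none passed the adjusted threshold (limma, adjusted p = 0.0561 to 0.0706). With 4 arrays a likeness of this kind describes a clear step between the subsets and little else.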

How the data were processed

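RNA of 4 sorted samples, 2 per subset, was measured on Affymetrix whole-transcript arrays. The deposited values are log2 levels, which the authors obtained by RMA (background subtraction, quantile normalization, summary of each cluster's probes); the submitters' processing notes name Affymetrix Expression Console 1.4. The genome build is not given in the sources used here. Of 34390 clusters, 23521 carried 1 gene symbol in the platform annotation, 1814 several and 9055 none. Single-symbol clusters were used, and a gene with several was represented by the one with the highest mean. A gene was tested if at least 2 arrays lay above their own median. limma 3.58.1 in R 4.3.3 (lmFit, eBayes, two-sided, Benjamini-Hochberg over 13133 genes, threshold 0.05) compared the subsets with 2 residual and 3.28 prior degrees of freedom. The procedure was tested on simulated data with shifts wider than any difference of the class II genes and equal noise for every gene. It was not tested for smaller differences. With 2 arrays per subset precision is limited, and the p-values reflect how pools of mice varied. Same-numbered samples are not said to share a litter, so no block was used.

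The genes, lists and motifs were chosen with earlier results of these data known. Of each pathway list, the 3 genes with the smallest p are named. Promoter sequences are RefSeq's, from 250 bases before the gene's start, and were aligned with Biopython 1.88. Alternatives were 2 other filters, 3 scalings, 2 variance models, all clusters of a gene, the replicate number as a block and each array left out.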

Additional observations from a re-analysis of the deposited data

How the results depend on the processing

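The direction of all 8 tested genes was the same under every alternative in which they were tested, and the only calls gained were those of H2-DMb2. With the stricter filter, which tests 5 of the genes, 1 passed, 1 was at an unadjusted p under 0.05, 5 had a positive difference and 6 pathway genes passed in limma. The gene that passed, H2-DMb2, entered only through its CX3CR1bright level, so this adds no support. Under an intensity trend 1 gene of the set and 6 pathway genes passed. Calls rose over all genes too. They were 5.93% of 7019 genes with the stricter filter and 2.35% under the trend, against 0.137% in the design as reported. Calls over all genes were 18 (8 higher, 10 lower) in the design as reported, 416 with the stricter filter (143 and 273), 308 under the trend (112 and 196), 33 after cyclic loess (19 and 14), and 1 each without a filter, after quantile normalization and with a robust prior. With 1 array left out, the median difference ran from 0.20 to 0.53, the genes at an unadjusted p under 0.05 from 1 to 2, the pathway genes passing from 0 to 1, and the genes without overlap, counted after seeing the data, from 5 to 9, where the share of all tested genes went from 29.3% to 33.3% against 18.9% with all arrays; 0 of the set passed, and the calls over all genes were 154 without CX3CR1bright replicate 1 and 0 otherwise.

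The median difference was 0.49 after quantile normalization and after cyclic loess, and all 8 differences also lay above the median of all genes, a comparison added after seeing the data. With the replicate number as a block the median difference was 0.39, 2 genes were at an unadjusted p under 0.05, H2-DMb2 had an adjusted p of 0.129 and 0 of all genes passed (limma, 1004 higher at an unadjusted p under 0.05). Deviations of same-numbered arrays correlated at 0.155 over genes, with 2 numbers and no statement of a shared litter. Shorter motif cores raised the share of promoter windows from 4.10% to 37.4% for the Y box and from 3.66% to 14.8% for the X box. The fold changes of dim genes are limited by background, and whether saturation limits those of the brightest was not tested.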

Other observations

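Between H2-DMb1 and H2-Ob on chromosome 17 lie 4 genes of class I processing, Psmb9, Tap1, Psmb8 and Tap2. All 4 were higher on replicate 1 than on replicate 2 within each subset. Tap1, a subunit of the peptide transporter, stood at 8.68 and 7.72 on CX3CR1low replicates 1 and 2 and at 9.07 and 8.01 on CX3CR1bright replicates 1 and 2. Psmb8, an immunoproteasome subunit, stood at 7.96, 7.44, 8.28 and 7.63 on the same arrays. Neither separated the subsets, at 0.34 ± 0.47 and 0.25 ± 0.31 (SE, n = 2 per subset). Among the class II genes, 6 of 9 were higher on replicate 1 within CX3CR1low and 8 of 9 within CX3CR1bright, against 47.2% and 49.3% of all tested genes. Tapbp, the class I loading factor tapasin, stood at 9.66, 9.62, 8.88 and 8.35 and differed by -1.02 ± 0.24 (limma, adjusted p = 0.136), against the direction of the class II genes. Btnl2, beside the class II region, differed by -0.59 ± 0.29.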
